A study of Glycine max with 4 samples.

Results

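In soybean (Glycine max) roots, 280 genes differed by at least 3-fold between the replicate libraries of one transgenic genotype, with both wild-type libraries in between. They were low in Ri replicate 1 and high in Ri replicate 2. The genes were picked by measured values. A gene entered if its mean level over the 4 libraries was at least 8 CPM (expected counts scaled to a common library total), if Ri replicate 1 lay below both wild-type libraries and Ri replicate 2 above both, and if Ri replicate 2 held at least 3 times the level of Ri replicate 1. Of 47973 genes listed in at least 1 library, 20233 reached 8 CPM, and the 280 made up 1.38% of these.

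Ri is the submitters' name for transgenic plants in which GmHAD1-2 was suppressed, and WT is the wild type, each with n = 2 libraries of root RNA. Both genotypes grew for 12 days in nutrient solution with KH2PO4, given as 250 mM in the design text (a unit in doubt, since nutrient solutions usually hold micromolar phosphate), so phosphate supply was the same for all 4 libraries. The libraries are called biological replicates, but how many plants went into each, how many independent transgenic lines there were and which libraries were grown, made or sequenced together is not stated in the labels or the design text. Ri replicate 1 held the fewest expected counts, 10077854, and listed the most genes, 44830. The other libraries held 10686759 to 11070260 expected counts and listed 41921 to 42618 genes.

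GmHAD1-2 takes its name from the haloacid dehalogenase superfamily, a large family of hydrolases in which many members remove phosphate groups from small molecules or proteins. Plants free and recycle phosphate with such enzymes, and soybean roots take the nutrient up from the medium. Replicate libraries of one genotype share its label, so a gene that lies on opposite sides of WT in them differs in a way that the label does not describe. Whether both Ri libraries came from the same transgenic line is not stated. The identifiers belong to the Wm82.a2.v1 annotation of the cultivar Williams 82. Of 47973 identifiers, 0 matched the gene table used here, so no gene function or root marker could be assigned. GmHAD1-2 could not be located either, and its suppression rests on the labels.

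The values that chose the genes are given first, as a description. The median level of the 280 genes was 7.06 CPM in Ri replicate 1 and 35.7 CPM in Ri replicate 2, against 15.6 CPM in WT replicate 1 and 12.9 CPM in WT replicate 2. Set per length, the median was 4.50 FPKM in Ri replicate 1 and 22.6 FPKM in Ri replicate 2, against 10.7 FPKM in WT replicate 1 and 8.74 FPKM in WT replicate 2 (FPKM, the authors' fragment counts scaled by length and depth). The WT medians lay between those of the Ri libraries, as the rule requires. In whole roots, fewer cells of a type and less RNA per cell cannot be told apart. Ri replicate 1 stood below the WT mean by a median log2 difference of -1.04 and Ri replicate 2 above it by 1.08, computed with 0.1 CPM added to each level. Over all 20233 genes of at least 8 CPM the same medians were -0.03 and 0.01.

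**Figure D1:**
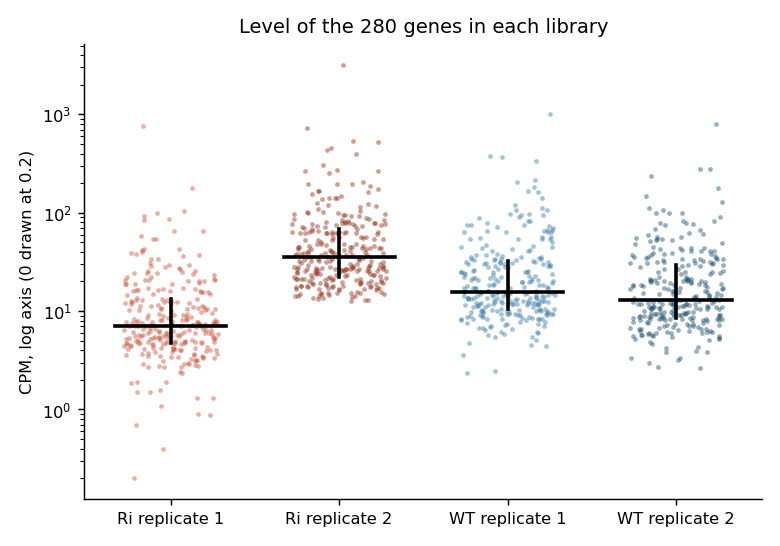
Each point is 1 of the 280 genes in 1 library, with the level in CPM on a log axis; horizontal bars are medians and vertical bars run from the lower to the upper quartile. The medians are 7.06 CPM in Ri replicate 1 and 35.7 CPM in Ri replicate 2, against 15.6 CPM in WT replicate 1 and 12.9 CPM in WT replicate 2.

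Summed over the 280 genes, the level was 4348 CPM in Ri replicate 1 and 20611 CPM in Ri replicate 2, against 9834 CPM in WT replicate 1 and 7810 CPM in WT replicate 2. The genes took 0.435% of all counts in Ri replicate 1 (exact 95% binomial interval 0.431% to 0.439%) and 2.06% in Ri replicate 2 (2.05% to 2.07%). In WT replicate 1 they took 0.983% (0.978% to 0.989%) and in WT replicate 2 0.781% (0.776% to 0.786%). These intervals cover counting error only. Without the 10 most abundant members the others summed to 2760 CPM in Ri replicate 1 and 13817 CPM in Ri replicate 2, against 6761 CPM in WT replicate 1 and 5464 CPM in WT replicate 2. The most abundant member, a gene of chromosome 9, had 757 CPM in Ri replicate 1 and 3200 CPM in Ri replicate 2, against 1019 CPM in WT replicate 1 and 801 CPM in WT replicate 2.

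The fold between the Ri libraries had a median of 4.24. It reached at least 4 in 158 of the 280 genes, at least 6 in 70, at least 10 in 31 and at least 32 in 6. On the log2 scale the gap between the Ri libraries had a median of 2.09, where the gap between the WT libraries of the same genes had a median of 0.40. The WT gap, too, was wider than over all genes of at least 8 CPM, where its median was 0.17. WT libraries were more than 1.5-fold apart in 78 of the 280 genes (27.9%), against 6.32% of all genes of at least 8 CPM. The wider WT gap was not particular to this set. In the 35 genes that met the reverse rule (high in Ri replicate 1, low in Ri replicate 2) its median was 0.38. There, 10 genes (28.6%) were more than 1.5-fold apart in WT. In 231 of the 280 genes (82.5%) the Ri gap was more than 3 times the WT gap, against 31.5% of all genes of at least 8 CPM. Nothing is read from this share since the rule chose on the Ri gap. One member, a gene on an unplaced scaffold, had 0 counts in Ri replicate 1 and 499 in Ri replicate 2, against 302 in WT replicate 1 and 157 in WT replicate 2. At the other end, the 2 members nearest the limit had folds of 3.02 and 3.03, and the 2 nearest genes outside it had 2.99 and 2.98. There were 48 genes that met every other condition with a fold from 2.8 to 3, and 30 members from 3 to 3.2, so the limit cuts through a continuous range of values.

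The exact 95% binomial lower limit of the ratio of Ri replicate 2 to Ri replicate 1, which covers counting error only, was above 2 in 280 of 280 genes and above 3 in 179. The genes were picked on the same counts, so these limits describe the chosen genes and test nothing. Fewer than 10 counts in Ri replicate 1 were found for 5 members (1.79%), against 0.054% of all genes of at least 8 CPM. The rule itself asks for low values in that library. The fractions of fragments that were divided among similar genes are not covered by this interval. Expected counts were whole in every library (within 0.005) for 28 of the 280 genes and for 1698 of the 20233 genes of at least 8 CPM (8.39%). Most genes in either set thus hold divided fragments in at least 1 library.

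The members differed in which Ri library lay farther from WT. In 86 genes only Ri replicate 2 was more than 2-fold away from both WT libraries, in 66 only Ri replicate 1, in 37 both and in 91 neither. In the 37 genes with both steps the median level was 3.78 CPM in Ri replicate 1 and 46.2 CPM in Ri replicate 2, against 12.5 CPM in WT replicate 1 and 11.2 CPM in WT replicate 2. The 66 genes with the large step in Ri replicate 1 alone had the highest WT medians of these classes. By definition that class places WT nearer to Ri replicate 2 than to Ri replicate 1. The medians of the 66 genes were 6.21 CPM in Ri replicate 1 and 32.1 CPM in Ri replicate 2, against 24.9 CPM in WT replicate 1 and 19.5 CPM in WT replicate 2. For the 86 genes with the large step in Ri replicate 2 alone the medians were 7.51 CPM in Ri replicate 1 and 37.0 CPM in Ri replicate 2, against 12.5 CPM in WT replicate 1 and 11.1 CPM in WT replicate 2. The log2 distance from the WT mean was larger in Ri replicate 2 for 151 of the 280 genes and larger in Ri replicate 1 for the others.

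**Figure D2:**
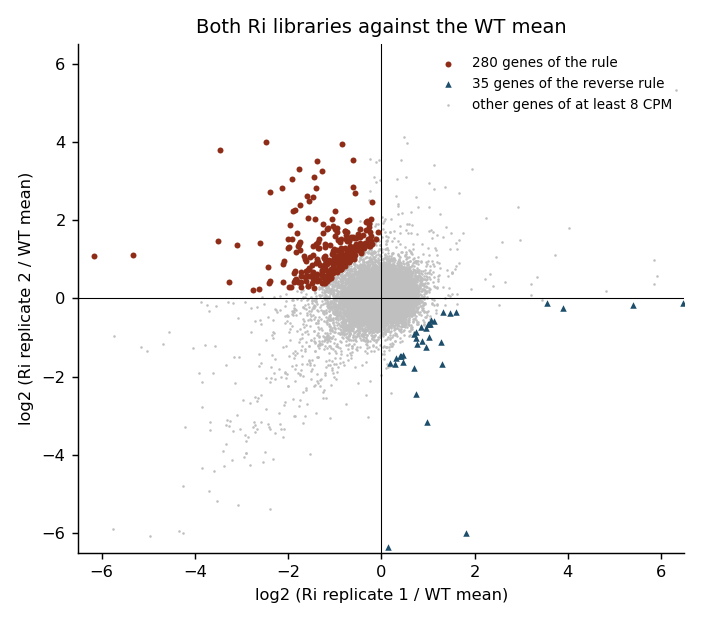
Each point is a gene of at least 8 CPM, with the log2 ratio of Ri replicate 1 to the WT mean on the horizontal axis and that of Ri replicate 2 on the vertical axis; levels under 3 counts are drawn at 3 counts, and 7 points lie beyond the axes. The 280 genes fill the upper left, the 35 genes that meet the reverse rule the lower right.

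The largest step in Ri replicate 2 was that of Glyma.14G177600.Wm82.a2.v1, a gene of chromosome 14 with 1 transcript of 1091 bases and whole counts in every library. It had 0.695 CPM in Ri replicate 1 and 61.9 CPM in Ri replicate 2, against 5.13 CPM in WT replicate 1 and 2.62 CPM in WT replicate 2. These levels rest on 7 and 685 counts in the Ri libraries and on 55 and 28 in the WT libraries. Ri replicate 2 was 15.96-fold above the WT mean, and the fold between the Ri libraries was 89.1 (exact 95% binomial interval 43.0 to 222, counting error only). Glyma.02G205800.Wm82.a2.v1, a gene of chromosome 2, differed from it in that Ri replicate 1 lay less far below WT. It had 1.502 CPM in Ri replicate 1 and 41.7 CPM in Ri replicate 2, against 2.47 CPM in WT replicate 1 and 2.96 CPM in WT replicate 2. Here Ri replicate 2 was 15.4-fold above the WT mean, while the WT mean was 1.81-fold above Ri replicate 1.

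The largest step in Ri replicate 1, among members with at least 3 counts there, was that of Glyma.03G132700.Wm82.a2.v1, a gene of chromosome 3. It had 0.882 CPM in Ri replicate 1 and 75.3 CPM in Ri replicate 2, against 41.2 CPM in WT replicate 1 and 29.2 CPM in WT replicate 2. The WT mean was 39.9-fold above Ri replicate 1, whereas Ri replicate 2 was 2.14-fold above the WT mean. As a pair of Ri libraries this gene averaged 38.1 CPM ± 52.6 (SD, n = 2) in Ri and 35.2 CPM ± 8.54 (SD, n = 2) in WT, so the group means nearly coincide while the Ri libraries stand 85.3-fold apart. Glyma.02G013300.Wm82.a2.v1, a gene of chromosome 2, had 0.908 CPM in Ri replicate 1 and 28.7 CPM in Ri replicate 2, against 12.1 CPM in WT replicate 1 and 8.60 CPM in WT replicate 2. Its WT mean was 11.4-fold above Ri replicate 1, and the fold between the Ri libraries was 31.6 (exact 95% binomial interval 16.7 to 71.0, counting error only).

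In the comparison of Ri with WT, edgeR's quasi-likelihood test with Benjamini-Hochberg adjustment called 0 of the 280 genes. Over all 34151 genes tested it called 0.117% lower and 0.0% higher. None of the 280 had an unadjusted edgeR p under 0.05, against 6.25% of all genes tested. The rule, which puts WT between the Ri libraries, leaves little room for a low p, and nothing is read from this count. DESeq2 also called 0 of the 280, where over all genes it called 0.794% lower and 0.132% higher. At an unadjusted p under 0.05 it had 6 of the 280 genes, against 4.17% of all genes tested. The edgeR log2 fold change of the 280 genes had a median of 0.39 and was above 0 in 221. The median over all genes tested was 0.02. The rule bears on this difference as well, since the mean of a low and a high Ri library tends to lie above WT. Nothing is read from it. The Ri mean was above the WT mean in 222 of the 280 genes (79.3%) and in 25 of the 35 genes of the reverse rule (71.4%). The share was 51.5% over all genes of at least 8 CPM and 60.6% in those that met the order condition at any fold. For Glyma.02G205800.Wm82.a2.v1 the log2 fold change was 2.93, at an edgeR adjusted p of 0.846, and its level averaged 21.6 CPM ± 28.5 (SD, n = 2) in Ri and 2.72 CPM ± 0.346 (SD, n = 2) in WT.

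Genes of the set were called higher or lower depending on which Ri library was left out, with the lone Ri library assumed to vary like the WT libraries. Without Ri replicate 1, edgeR called 193 of the 280 genes higher in Ri and 0 lower, against 3.26% higher and 2.39% lower over all genes tested. Without Ri replicate 2, it called 123 lower and 0 higher, against 2.78% lower and 1.79% higher over all genes tested. The rule used these same values, so the counts describe the set and test nothing.

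The reverse pattern was met by fewer genes at this fold. With no fold required, WT lay between a low Ri replicate 1 and a high Ri replicate 2 in 2797 genes (13.8%), and the order was the reverse in 2381 (11.8%). At 3-fold or more the numbers were 280 (1.38%) and 35 (0.173%). With 1 library on each side, this difference has no replicate check.

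The order of the WT libraries was not used by the rule. Of the 280 genes, WT replicate 1 was the higher of the WT libraries in 218 (77.9%), and over the 20233 genes of at least 8 CPM it was the higher in 54.9%. The median log2 ratio of WT replicate 1 to WT replicate 2 was 0.34 in the 280 genes and 0.03 over all genes of at least 8 CPM. WT replicate 1 was more than 1.5-fold above WT replicate 2 in 74 members (26.4%) and more than 1.5-fold below it in 4 (1.43%), against 4.68% and 1.66% of all genes of at least 8 CPM. Most members therefore ran in the order Ri replicate 2, WT replicate 1, WT replicate 2, Ri replicate 1 from high to low. With TMM-scaled library sizes (edgeR's scaling) 73.9% of the same 280 genes were higher in WT replicate 1, against 45.1% of all genes of at least 8 CPM. That scaling thus turned the majority over all genes round but not that of the members.

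The share is given next by the size of the gap between the Ri libraries, in groups of genes that do not overlap. Among genes that met the order condition with a fold under 1.5, 62.4% were higher in WT replicate 1 (770 of 1233). The shares were 75.4% at folds of 1.5 to 2 (642 of 851), 75.3% at 2 to 3 (326 of 433) and 77.9% in the 280 genes. In genes with the reverse order WT replicate 1 was higher in 571 of 1526, 195 of 656, 41 of 164 and 10 of 35 genes at the same steps, or 37.4%, 29.7%, 25% and 28.6%. The share thus differed between the first step and the others and changed little beyond a fold of 1.5 in the order of the members. The median log2 ratio of WT replicate 1 to WT replicate 2 was 0.04, 0.15, 0.25 and 0.34 at these steps in the order of the members, and -0.04, -0.09, -0.20 and -0.20 in the reverse order. Each of these comparisons sets 1 library against another, and genes are not independent replicates, so none has a test. Over the 20233 genes, replicate differences of WT and of Ri (replicate 1 minus replicate 2, log2) had a Pearson correlation of -0.31, a description of 4 libraries.

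**Figure D3:**
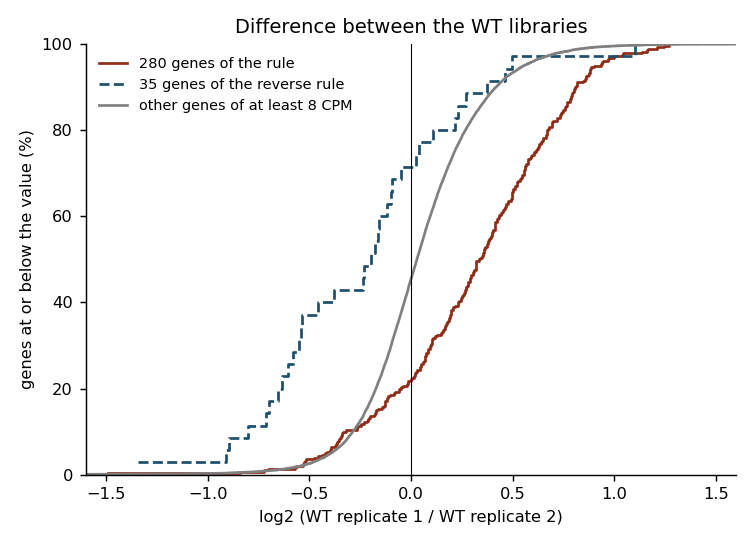
Cumulative share of genes (vertical axis, percent) at or below each log2 ratio of WT replicate 1 to WT replicate 2 (horizontal axis) for the 280 genes, the 35 genes of the reverse rule and the other genes of at least 8 CPM, which include those 35. The curve of the 280 genes lies to the right, with a median of 0.34; that of the 35 lies to the left, with a median of -0.20.

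The share of members higher in WT replicate 1 exceeded that of all genes at each of 4 levels and 5 lengths. At mean levels of 8 to 16, 16 to 32, 32 to 64 and over 64 CPM, 82.6%, 76.3%, 69.8% and 76.7% of the members were higher in WT replicate 1. Over all genes at those levels the shares were 62.8%, 57.3%, 49.0% and 41.7%. By transcript length, 75.6% of the members under 1000 bases were higher in WT replicate 1, 78.8% from 1000 to 1500, 79.3% from 1500 to 2000, 77.6% from 2000 to 3000 and 73.3% at 3000 bases or more. Over all genes of those lengths the shares were 63.9%, 59.2%, 56.5%, 54.7% and 42.4%. It also differed with the side on which the Ri step was large. It was 86.4% in the 66 genes whose large step was in Ri replicate 1 alone, 68.6% in the 86 genes with the large step in Ri replicate 2 alone, 67.6% in the 37 with both and 84.6% in the 91 with neither.

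The 280 genes were shorter at the median than all genes of at least 8 CPM. Their median transcript length was 1575 bases, against 1902 bases over all genes of at least 8 CPM, and 208 of them (74.3%) had a single transcript listed, against 57.5%. For the 35 genes of the reverse rule the median length was 1649 bases, and 54.3% had a single transcript listed. The rule took 2.18% of the genes under 1000 bases, 1.89% of those from 1000 to 1500, 1.76% from 1500 to 2000, 1.001% from 2000 to 3000 and 0.430% of those of 3000 bases or more. Length also moved with the difference between the Ri libraries over all genes of at least 8 CPM. The median log2 ratio of Ri replicate 2 to Ri replicate 1 was 0.19 under 1000 bases and -0.06 at 3000 bases or more, and its SD over genes was 0.77 and 0.51 in these classes. The part of length in the set was not tested. By level, the rule took 1.82% of the genes of 8 to 16 CPM and 0.931% of those over 64 CPM. The median mean level was 18.2 CPM in the 280 genes and 23.2 CPM over all genes of at least 8 CPM.

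**Figure D4:**
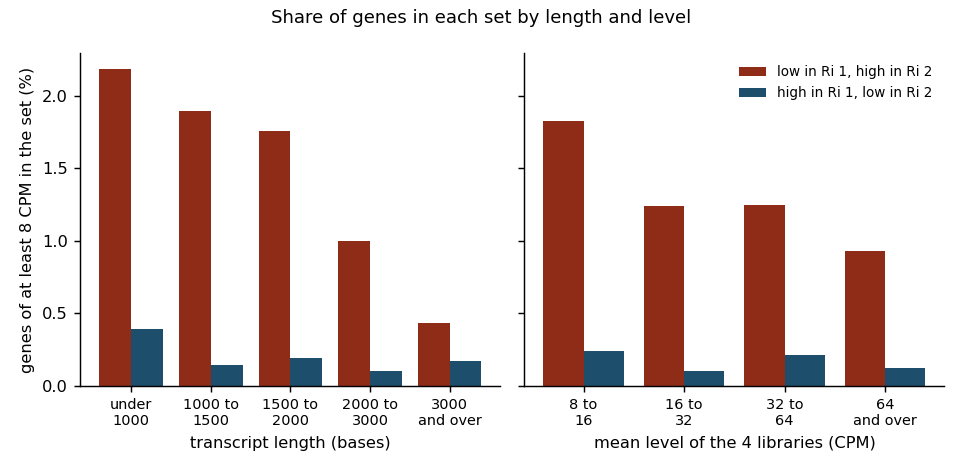
Bars give the percentage of genes of at least 8 CPM that belong to the 280 genes or to the 35 genes of the reverse rule, by transcript length in bases (left) and by mean level in CPM (right). The share of the 280 goes from 2.18% under 1000 bases to 0.430% at 3000 bases or more.

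The identifiers carry the chromosome, and members lay on all 20 chromosomes, with 9 to 20 genes on each and 1 on an unplaced scaffold. The share of genes of at least 8 CPM that were members was highest on chromosome 5 (19 of 996, 1.91%) and lowest on chromosome 8 (13 of 1411, 0.921%). Some members were neighbours. With listed genes put in the order of their identifiers, 17 members stood directly beside another member, and 34 (12.1%) had one within 5 places. Among genes of at least 8 CPM directly beside a member, 7.46% were members themselves (17 of 228), and within 5 places 3.07% (34 of 1106), against 1.38% overall. Within 10 places the share was 1.94%. For the 35 genes of the reverse rule, 0 of 153 genes within 5 places of a member of that set belonged to it and 2 of 304 within 10 places (0.658%), against 0.173% overall. With so few genes these counts are too low to set against those of the 280.

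Joined at gaps of up to 5 places, these neighbours formed 13 runs, of which 9 held 2 members, 2 held 3, 1 held 4 and 1 held 6. The longest lay on chromosome 17, where 6 of 8 consecutive listed genes were members. Their summed level was 115 CPM in Ri replicate 1 and 1098 CPM in Ri replicate 2, against 394 CPM in WT replicate 1 and 294 CPM in WT replicate 2. The third gene of the run had the largest fold, with 12.8 CPM in Ri replicate 1 and 437 CPM in Ri replicate 2, against 31.5 CPM in WT replicate 1 and 56.3 CPM in WT replicate 2. It was also the 1 member of the run that was higher in WT replicate 2. Folds between the Ri libraries in the run spanned 4.75 to 34.0. Of the other 2 listed genes in it, the fifth was under 1 CPM in every library, and the seventh met the order condition with a fold of 2.40. The rule fixed the order of libraries around WT in the 6 members, so nothing is read from their shared order. Over all genes of at least 8 CPM, 13.8% met the order condition.

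On chromosome 5, 4 of 6 consecutive listed genes were members, with a summed level of 115 CPM in Ri replicate 1 and 622 CPM in Ri replicate 2, against 326 CPM in WT replicate 1 and 222 CPM in WT replicate 2. The second gene of that run, which is no member, had 1.67 CPM in Ri replicate 1 and 19.1 CPM in Ri replicate 2, against 53.2 CPM in WT replicate 1 and 32.9 CPM in WT replicate 2. Its fold between the Ri libraries was 11.5, but both Ri libraries lay below both WT libraries. None of the members of the runs on chromosomes 17 and 5 had whole counts in every library. Over all genes of at least 8 CPM only 8.39% did, so with so few members nothing is read from this. Fragments may have been divided among these members or with genes elsewhere, which was not tested. Their values may therefore not be independent. A run on chromosome 2 held 3 short genes of 216 to 471 bases with consecutive listed identifiers, all members, and 2 of them had whole counts. Their summed level was 18.8 CPM in Ri replicate 1 and 123 CPM in Ri replicate 2, against 61.3 CPM in WT replicate 1 and 55.8 CPM in WT replicate 2. The middle gene had 8.04 CPM in Ri replicate 1 and 55.0 CPM in Ri replicate 2, against 15.4 CPM in WT replicate 1 and 16.7 CPM in WT replicate 2.

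**Figure D5:**
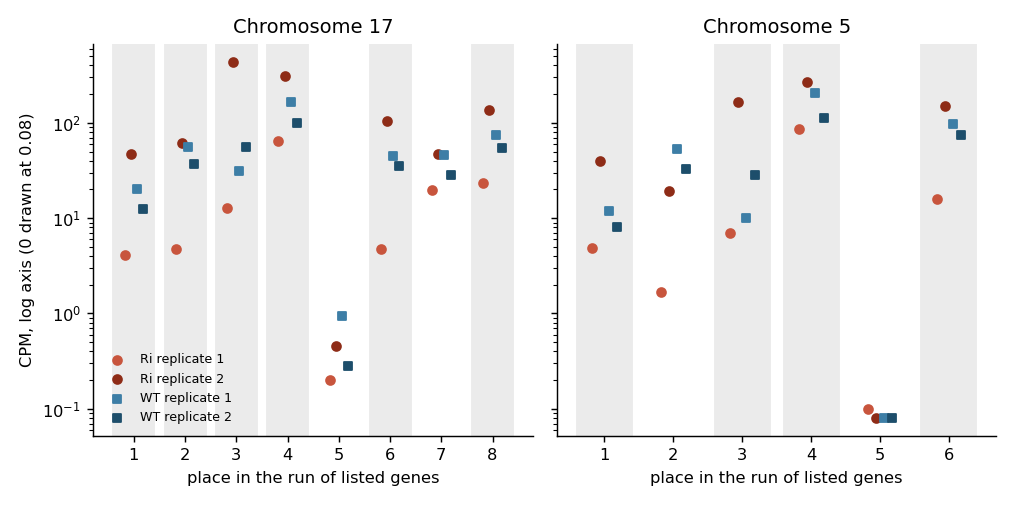
Levels in CPM (log axis) of each listed gene in the runs of chromosomes 17 and 5, by place in the run; circles are the Ri libraries, squares the WT libraries, and grey bands mark the members. In each band Ri replicate 1 is the lowest point and Ri replicate 2 the highest, as the rule requires; in the fifth place of each run all libraries are under 1 CPM.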

How the data were processed

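The authors deposited 1 table per library with, per the file headers, a transcript length, an expected count and an FPKM per gene. The deposited expected counts are estimated fragments per gene and are not normalized; the authors scaled the FPKM values by length and depth. Per the submitters' processing notes, the tools included Bowtie2, HISAT and RSEM, with no version, role or strand setting named. Tables list genes above 0 only (lowest FPKM 0.01), so an unlisted gene was taken as 0. CPM was the expected count over the library total, and 3 counts, the floor, correspond to 0.271 to 0.298 CPM.

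The 280 genes were found by applying the rule to CPM. Ri was compared with WT in edgeR 4.0.16 (R 4.3.3) by a quasi-likelihood test on expected counts rounded to whole numbers, TMM scaling, the default low-count filter (34151 genes, which included all 280) and robust estimation, with genotype as the only term and a Benjamini-Hochberg adjusted p of 0.05 as threshold. P-values measure the spread between libraries whose plants are not described. Alternatives used DESeq2 1.42.0 and limma 3.58.1. The fits and the rule were checked on simulated data. The labels tie no WT library to a Ri library of the same number, and same-numbered libraries deviated in opposite directions (correlation -0.31 over 20233 genes), so no pairing was assumed.

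The genes, lists and comparisons were chosen with earlier results of these data known. Since 0 of 47973 identifiers matched the 59048 genes of the reference table (Glycine_max_v4.0), the 44 gene lists and 10 promoter motifs laid down for named genes were not run. Identifiers in the text are limited to 2 in each direction, namely the 2 members farthest above WT in Ri replicate 2 and the 2 farthest below WT in Ri replicate 1, where that library held at least 3 counts. Reading direction in this way was decided after the values were seen, as was the choice of the genes described by their place in a run.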

Additional observations from a re-analysis of the deposited data

How the results depend on the processing

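The number of genes meeting the rule was 246 with TMM-scaled library sizes and 246 with DESeq2 size factors, each a subset of the 280, and 281 with FPKM, of which 279 were shared. It was 713 at 2-fold, 158 at 4-fold, 448 at a mean of 4 CPM, 159 at 16 CPM and 1011 with no minimum on the mean. Leaving out a WT library gave 303 to 326. The share of members higher in WT replicate 1 stayed between 74.0% and 81.0% except with no minimum on the mean, where it was 70.9%. The median log2 ratio of Ri replicate 2 to the WT mean was 0.71 at 2-fold and 0.98 to 1.33 in the other alternatives, and that of Ri replicate 1 was -1.33 to -0.74. The set at 2-fold admits smaller gaps between the Ri libraries. The sets of 448 and 1011 genes kept the 3-fold limit, and their medians for Ri replicate 2 were 1.06 and 1.04. The members called for Ri against WT numbered 0 in the alternatives that kept both Ri libraries, and 0 to 193 over the 4 libraries left out in turn. Over all genes, the 40 calls became 48 with DESeq2 size factors, 12 with upper-quartile factors, 0 with library totals (2131 genes at an unadjusted p under 0.05), 164 with no filter, 6 with a filter of 8 CPM, 316 in DESeq2, 0 in limma-voom (2069 at an unadjusted p under 0.05), 0 and 5 in limma on log2(FPKM + 1) and log2(FPKM + 0.1) (2206 and 2216), and 0 to 1994 with 1 library left out (1994 without Ri replicate 1, 1623 without Ri replicate 2, and 0 without either WT library, where 795 and 991 genes had an unadjusted p under 0.05). What causes these changes was not tested. A replicate block on the shared number gave 107 edgeR calls, 0 of them members; crossing the block, an idea that came after the data had been seen, gave 68 and 0. The minimum of 8 CPM is scaled to the library totals. Of the 280, 5 (1.79%) had fewer than 10 counts in Ri replicate 1, against 0.054% of all genes of at least 8 CPM.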
